A study of Rattus norvegicus with 21 samples.

Results

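Complement and coagulation factors are plasma proteins that the liver makes and secretes. The set described here lists 37 of their genes, chosen by symbol and by known role, with earlier results of these data known. A gene was taken as measured where a probe set of the array table was paired with that symbol and no other. Where a gene had several such probe sets, the brightest on average across the 21 arrays was read. By this rule 31 of the 37 genes were found, of 14218 genes in the table. They comprised 15 genes of complement, counting its inhibitor Serping1, and 16 genes of coagulation, counting the adhesion protein Vtn. C2 and Cfb share their probe sets, that of Kng1 is paired with several genes, and these were not analysed here, nor were F7, F11 and F13b.

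The livers came from male Harlan Sprague Dawley rats given 2-ethylhexyl diphenyl phosphate (EHDP, spelled EDHP in the sample labels), an organophosphate ester, in corn oil by oral gavage. Rats were dosed on 4 consecutive days and killed on day 5. Dose groups were vehicle (corn oil with no EHDP, 6 arrays) and 61.2, 122.5, 244.6, 489.2 and 978.5 mg/kg (3 arrays each), hybridised as total RNA of the left liver lobe to Affymetrix arrays. The treatment text gives 5 vehicle rats while 6 vehicle arrays carry vehicle labels, and no label ties an array to a rat, so p-values measure the spread between these arrays. The 5 dose comparisons share the same vehicle arrays.

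Complement tags microbes and damaged cells for removal. Its lectin pathway starts when mannose-binding lectins dock on sugars and activate the serine proteases Masp1 and Masp2, whose cleavages build the enzyme that splits C3. C5 to C9 then assemble into the membrane attack complex, while C4b-binding protein, factor I and C1 inhibitor hold the cascade back. Coagulation is another protease cascade, in which prothrombin (F2) is activated by factor X (F10) with its cofactor F5 and turns fibrinogen into fibrin. Antithrombin (Serpinc1), heparin cofactor II (Serpind1) and the protein C and protein S system (Proc, Pros1) restrain it, and plasmin (Plg) dissolves the clot. Hepatocytes are the main source of nearly all of these proteins.

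Promoter sequence is shown for Pros1, which rose, for F10, which fell, and for the gene pairs Fga with Fgg and C4bpa with C4bpb, whose signals moved together from array to array. Each runs from 250 bases before to 50 bases after a transcription start in RefSeq's annotation of the rat assembly GRCr8. For Pros1, Fgg and C4bpa that start lies inside the annotated gene and not at its outer end. Sequences are written 5′ to 3′ on the gene's own strand. Capitals mark matches to the motifs searched.
Pros1, chr11:13677049-13677348, plus strand: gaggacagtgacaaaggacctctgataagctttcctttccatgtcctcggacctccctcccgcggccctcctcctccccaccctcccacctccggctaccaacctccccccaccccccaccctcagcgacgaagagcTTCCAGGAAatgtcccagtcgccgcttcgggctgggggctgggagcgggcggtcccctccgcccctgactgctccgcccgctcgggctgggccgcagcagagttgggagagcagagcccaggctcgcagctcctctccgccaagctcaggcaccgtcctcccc
F10, chr16:83190231-83190530, minus strand: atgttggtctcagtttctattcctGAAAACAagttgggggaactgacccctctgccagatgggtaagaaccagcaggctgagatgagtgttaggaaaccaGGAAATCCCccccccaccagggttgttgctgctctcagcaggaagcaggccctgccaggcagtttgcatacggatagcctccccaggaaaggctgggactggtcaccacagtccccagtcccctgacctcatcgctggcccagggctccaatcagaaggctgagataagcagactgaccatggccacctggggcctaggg
Fga, chr2:170671919-170672218, plus strand: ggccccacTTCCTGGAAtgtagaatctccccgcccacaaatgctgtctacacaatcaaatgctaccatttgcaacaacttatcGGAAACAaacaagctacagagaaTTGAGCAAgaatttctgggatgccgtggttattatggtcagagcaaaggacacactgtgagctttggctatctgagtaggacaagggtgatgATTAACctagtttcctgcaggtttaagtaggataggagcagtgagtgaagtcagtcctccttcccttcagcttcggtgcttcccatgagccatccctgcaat
Fgg, chr2:170652833-170653132, plus strand: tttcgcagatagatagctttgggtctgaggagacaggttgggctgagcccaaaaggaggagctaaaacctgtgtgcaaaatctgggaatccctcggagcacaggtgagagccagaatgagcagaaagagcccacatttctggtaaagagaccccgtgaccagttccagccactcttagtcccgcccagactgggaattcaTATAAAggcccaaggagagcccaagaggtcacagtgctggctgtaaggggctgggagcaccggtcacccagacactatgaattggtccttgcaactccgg
C4bpa, chr13:44663422-44663721, minus strand: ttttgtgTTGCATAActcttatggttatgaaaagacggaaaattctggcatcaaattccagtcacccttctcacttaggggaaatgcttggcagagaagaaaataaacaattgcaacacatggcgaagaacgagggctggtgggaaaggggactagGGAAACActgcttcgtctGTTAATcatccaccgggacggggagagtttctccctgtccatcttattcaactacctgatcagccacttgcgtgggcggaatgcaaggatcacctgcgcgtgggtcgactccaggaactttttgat
C4bpb, chr13:44683732-44684031, minus strand: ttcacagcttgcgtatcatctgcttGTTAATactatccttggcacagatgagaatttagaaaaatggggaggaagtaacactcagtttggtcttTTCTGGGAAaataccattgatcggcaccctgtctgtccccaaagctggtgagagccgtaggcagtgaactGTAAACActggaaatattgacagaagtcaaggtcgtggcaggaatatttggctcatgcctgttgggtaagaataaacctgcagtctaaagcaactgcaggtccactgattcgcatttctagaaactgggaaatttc

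Masp2, C8g, C9, Serping1, Serpind1 and Cpb2 have no sequence shown or searched here. The motifs were searched on both strands of the 25 members that the promoter table held, beside all 33469 promoters of the same length. The FOXA motif TGTTTNC, of the forkhead factors of liver, was found in 10 members (40% against 21.1% of all promoters), F10 among them. C/EBP's TTGCNNAA was found in 9 (36% against 10.6%), and the HNF1 motif GTTAAT in 8 (32% against 7.45%). The STAT motif TTCNNNGAA, bound by factors that cytokines activate, was found in 6 (24% against 8.87%), Pros1, Fga and C4bpb among them. TATAAA was found in 2 members, C6 and Fgg (8% against 14.2%), NF-kB's GGNNTTTCC in 2, Cfi and F10 (8% against 6.05%), and TGTTCT of the glucocorticoid receptor in 3 (12% against 20.7%). HNF4's AAAGTCCA was found in 0 members, against 1.37% of all promoters. Matches of different motifs overlapped at 1 place in the members. A match describes letters in this window and is not shown to be a site. Fga held HNF1, FOXA, C/EBP and STAT matches, whereas its partner Fgg held a TATA match.

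Members sat high on the array's scale. Mean log2 signals ran from 9.60 for C6 to 14.85 for C3, the central component on which all complement pathways meet, and 19 of the 31 lay above 13. The brightest probe sets of the arrays read 15.30 to 15.36, so C3 was close to the top of the scale. Within dose groups the median residual SD was 0.12 for members and 0.14 for all genes, on the log2 scale. C3 had the lowest of the members at 0.037, below all but 0.0985% of genes, and C6 the highest at 0.80, at the 99.7th percentile of genes. The hepatocyte markers Alb, Ttr, Apoa1 and others were measured for 7 of 8 listed. They averaged 14.35 to 14.42 in vehicle arrays and 14.37 to 14.39 at 978.5 mg/kg. There 0 of the 7 passed limma's test (0 also at an unadjusted p under 0.05). In limma's trend over dose rank 0 were called and 3 had an unadjusted p under 0.05, as 24.5% of all genes did. At 489.2 mg/kg 0 were called and 1 had an unadjusted p under 0.05 (14.5% of all genes).

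**Figure D1:**
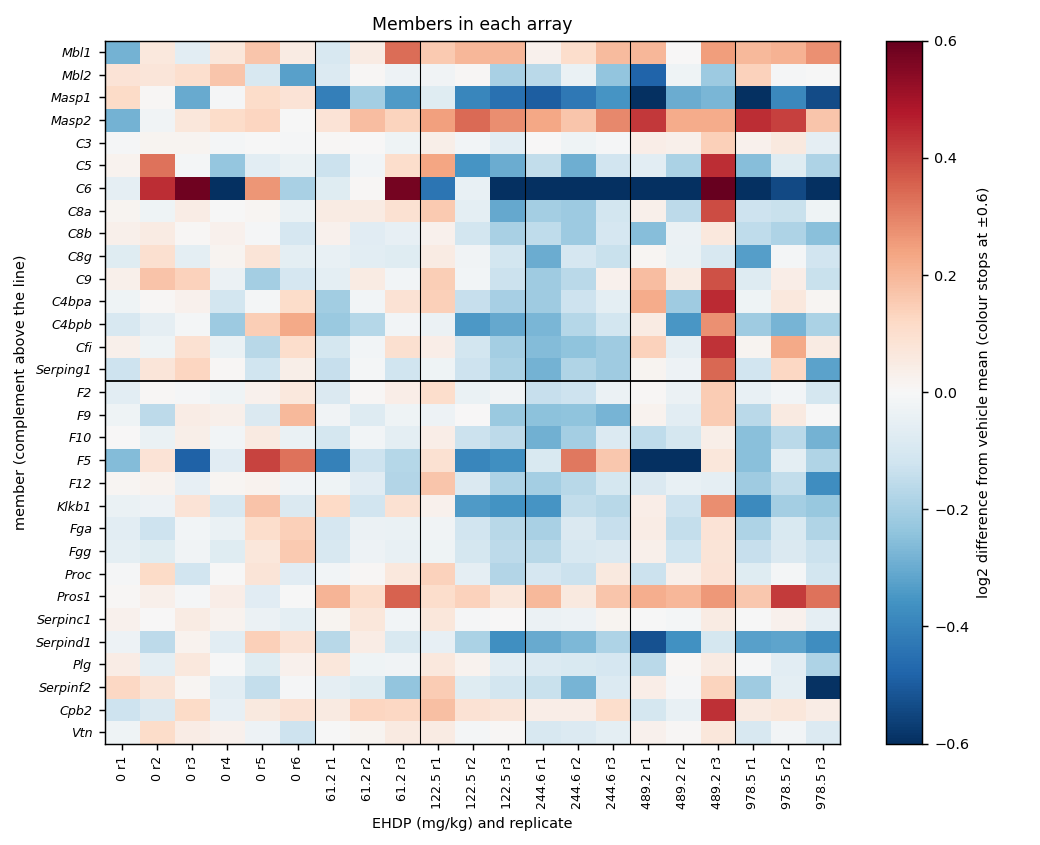
Log2 difference of each of the 31 members (rows, complement above the line) from its vehicle mean in each of the 21 arrays (columns, by dose in mg/kg and replicate), with colour stopping at 0.6 in either direction. Masp1 is low and Masp2 (on the probe set read) and Pros1 are high in treated arrays, C6 varies most, and replicate 3 of 489.2 mg/kg is high in most complement rows.

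At 978.5 mg/kg 6 of the 31 members passed the test against vehicle, and 4 of them fell. The test was limma's moderated comparison over all 21 arrays (15 residual degrees of freedom), with p adjusted by Benjamini-Hochberg over all 14218 genes and called at 0.05. Masp2 and Pros1 rose, and Masp1, F10, F12 and Serpind1 fell. That is 19.4% of members, where 10.2% of all genes were called. Upward calls took 6.45% of members and 6.18% of all genes, and downward calls 12.9% of members and 4.07% of all genes. Masp2 counts among the upward calls only through a probe set chosen with its treated arrays included. With each gene read from its brightest probe set in the vehicle arrays 5 members were called, 1 upward and 4 downward. Changes were small, between 1.17-fold and 1.43-fold. The count fell to 2 (Masp1 and Pros1) without replicate 1 of 978.5 mg/kg and to 3 (Masp1, Masp2 and Pros1) without replicate 3. The calls of Masp1 and Masp2 also depended on which of their probe sets was read. When probe sets of a gene were averaged 5 members were called, which were F10, F12, Pros1, Serpind1 and Fga.

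At the other doses calls were few. By the same limma test 0 members were called at 61.2 mg/kg (0.0141% of all genes) and 0 at 122.5 mg/kg (0.113%). An unadjusted p under 0.05 was reached by 2 members at 61.2 mg/kg (6.45%, against 5.48% of all genes) and by 4 at 122.5 mg/kg (12.9% against 6.06%). Masp1 alone was called at 244.6 mg/kg (2.95% of all genes, 0.429% downward and 2.52% upward) and at 489.2 mg/kg (2.9%, 1.39% downward and 1.51% upward), both times downward. Without adjustment 13 members passed 0.05 at 244.6 mg/kg (41.9%, against 14% of all genes), 7 at 489.2 mg/kg (22.6% against 14.5%) and 12 at 978.5 mg/kg (38.7% against 24.7%). The trend over dose rank, which reuses the arrays of the dose comparisons, called 5 members (16.1%, against 11.2% of all genes). Masp2 and Pros1 were called upward, and Masp1, F10 and Serpind1 downward. With the brightest probe set in the vehicle arrays the trend called 4 members, without Masp2. Of all genes 6.06% were called upward and 5.12% downward in the trend, and 9 members (29%) and 24.5% of all genes passed without adjustment. With the treated arrays alone the trend called 0 members. That fit had fewer arrays and a narrower dose range, and its share of all genes is not given here. What the slopes rest on therefore cannot be read from this count. Between 978.5 and 489.2 mg/kg 0 members were called by limma (0.106% of all genes) and 6 had an unadjusted p under 0.05 (19.4% against 13.6%). The arrays of 978.5 mg/kg lay wholly below those of 489.2 mg/kg for 6 members (C9, F10, F12, Klkb1, Serpinf2 and Vtn, against 9.24% of all genes) and wholly above for Mbl2 (7.62%).

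**Figure D2:**
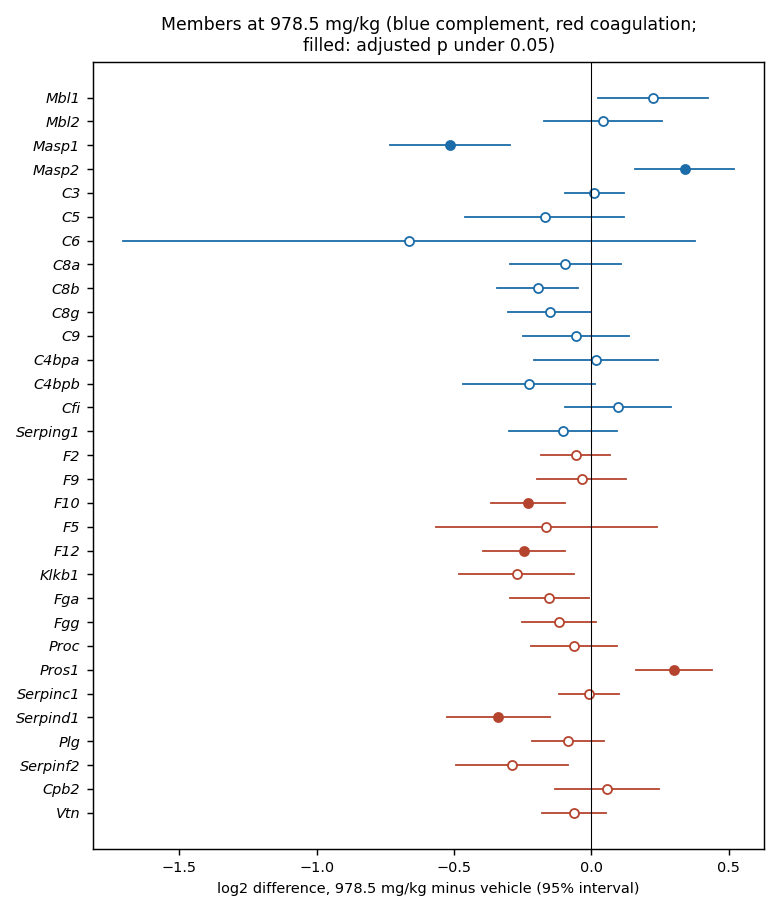
Log2 difference at 978.5 mg/kg minus vehicle with its 95% interval for each of the 31 members, complement in blue and coagulation in red, filled where the adjusted p was under 0.05. Masp1, Serpind1, F12 and F10 lie below zero and Masp2 and Pros1 above it, and C6 has the widest interval.

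The lectin pathway held the 2 complement members that were called. Masp1, whose product activates itself and then Masp2, had vehicle log2 signals with a lowest of 10.56, a median of 10.91 and a highest of 10.98. Its arrays read 10.45, 10.66 and 10.52 at 61.2 mg/kg and 10.79, 10.47 and 10.41 at 122.5 mg/kg. They read 10.37, 10.43 and 10.51 at 244.6 mg/kg, 10.22, 10.56 and 10.59 at 489.2 mg/kg, and 10.24, 10.48 and 10.33 at 978.5 mg/kg. All 3 arrays at 244.6 and at 978.5 mg/kg lay below every vehicle array, and at 489.2 mg/kg 1 of 3 did. The log2 difference was -0.52 ± 0.11 (SE) at 978.5 mg/kg, 1.43-fold lower (limma, adjusted p = 0.00356). It was -0.43 ± 0.11 at 244.6 mg/kg (limma, adjusted p = 0.0297) and -0.41 ± 0.11 at 489.2 mg/kg (limma, adjusted p = 0.0406). Across dose ranks it fell by 0.10 ± 0.02 per step (limma, adjusted p = 0.00147).

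The Masp1 call at 978.5 mg/kg held in all 9 refits that left out 1 of its arrays. At 244.6 mg/kg it was lost without any of the 3 treated arrays or without vehicle replicate 1, 5 or 6 (adjusted p 0.0501 to 0.197). At 489.2 mg/kg it was lost without treated replicate 1 or 3 or without vehicle replicate 1, 2, 4, 5 or 6 (adjusted p 0.0536 to 0.368).

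The fall of Masp1 was seen on 1 of its 3 probe sets. The values above are of 1390585_at, the probe set with the highest signal. At 978.5 mg/kg probe set 1389543_at differed from vehicle by 0.06 (adjusted p = 0.853) and 1371116_at by 0.25 (adjusted p = 0.104), in a limma fit over all 20832 probe sets with a single gene. Both were dim, with vehicle means of 7.12 and 6.96 within 1 log2 unit of the median probe set of every array. Their trends had slopes of 0.05 (adjusted p = 0.423) and 0.06 (adjusted p = 0.0220), the latter an upward call for 1371116_at. With the mean of the 3 probe sets in place of the brightest, Masp1 differed by -0.07 at 978.5 mg/kg (limma, adjusted p = 0.551), and by 0.14 at 489.2 mg/kg (adjusted p = 0.315). Which transcripts each probe set reads was not tested.

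Masp2, the protease that cleaves C4 and C2, went the other way on the probe set read, 1371098_a_at. This probe set was the brightest of 3 over all 21 arrays, at a mean of 11.52 against 11.50 for 1371025_at, only because its treated arrays were high: over the vehicle arrays alone 1371025_at was the brighter, at 11.43 against 11.34. The choice rule thus favoured a rise. Its vehicle arrays had a lowest log2 signal of 11.05, a median of 11.37 and a highest of 11.47. Its arrays read 11.42, 11.52 and 11.47 at 61.2 mg/kg, 11.58, 11.68 and 11.62 at 122.5 mg/kg, and 11.57, 11.50 and 11.63 at 244.6 mg/kg. They read 11.76, 11.56 and 11.56 at 489.2 mg/kg and 11.78, 11.75 and 11.50 at 978.5 mg/kg. From 122.5 mg/kg upward every treated array lay above every vehicle array. The log2 difference at 978.5 mg/kg was 0.34 ± 0.09 (SE), 1.26-fold (limma, adjusted p = 0.0159), and the trend rose by 0.07 ± 0.01 per dose rank (limma, adjusted p = 0.00437). The call at 978.5 mg/kg was lost without treated replicate 1 (adjusted p = 0.0941) or replicate 2 (adjusted p = 0.0673).

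Neither other probe set of Masp2 was called. At 978.5 mg/kg 1371025_at, of nearly the same signal, differed by 0.07 (limma over probe sets, adjusted p = 0.718), with a trend slope of 0.02 (adjusted p = 0.586). The dimmer 1393156_at differed by -0.19 (adjusted p = 0.593). With each gene read from its brightest probe set in the vehicle arrays, a choice added after the data were seen, Masp2 was the only member to change probe set. It was then not called, and 5 members were called at 978.5 mg/kg and 4 in the trend. The mean of the 3 differed by 0.07 (limma, adjusted p = 0.595). The recognition lectins Mbl1 and Mbl2 were not called. Mbl1 differed by 0.22 at 978.5 mg/kg (limma, adjusted p = 0.149), with all 3 arrays above the vehicle arrays, and Mbl2 by 0.04.

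**Figure D3:**
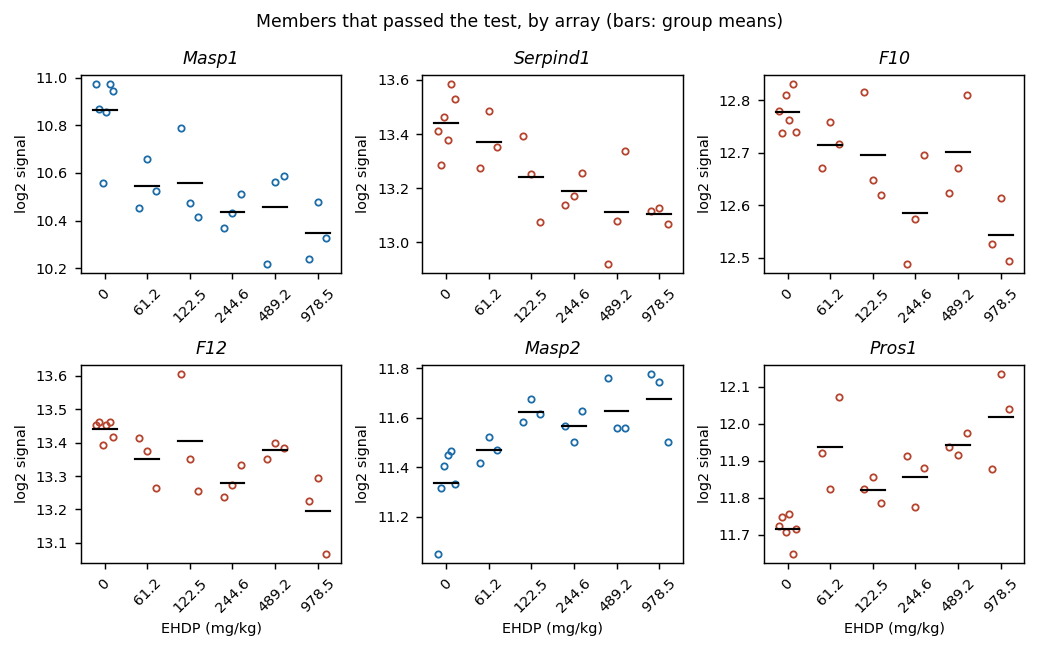
Log2 signal of the 6 members called at 978.5 mg/kg in each array (points) with group means (bars) against EHDP dose, each panel on its own scale. Masp1, Serpind1, F10 and F12 end lower and Masp2 and Pros1 end higher than the vehicle arrays, and all treated arrays of Pros1 lie above all vehicle arrays.

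C3 was the most even member. It differed from vehicle by 0.01 at 978.5 mg/kg, with a 95% interval of -0.10 to 0.12. At 489.2 mg/kg its 3 arrays lay above every vehicle array with a difference of 0.07 (limma, adjusted p = 0.578).

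The terminal components, which build the membrane attack complex, gave 0 calls by limma in the 5 dose comparisons and the trend. Of the 6, 4 (66.7%) had an unadjusted p under 0.05 in at least 1 of these 6 comparisons, as 41.8% of all genes did. C6, C8b and C8g did so with falls, and C9 with a rise of 0.21 at 489.2 mg/kg. At 244.6 mg/kg all 6 (C5, C6, C8a, C8b, C8g and C9) had differences below zero, from -1.16 for C6 to -0.12 for C9. The 3 arrays of C8a and of C8g there lay below every vehicle array, and those of C8b did so at 978.5 mg/kg, where C8b differed by -0.20 (limma, adjusted p = 0.0829). C6 was the least steady, with vehicle values from 8.96 to 10.59 and 8.25, 8.77 and 11.39 in the 3 arrays of 489.2 mg/kg. Its difference was -0.66 ± 0.50 (SE) at 978.5 mg/kg (limma, adjusted p = 0.440). Without replicate 3 of 489.2 mg/kg the trend called 8 members, among them C6, C8b and F12, all downward, in addition to the 5 named above.

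The complement inhibitors C4bpa and C4bpb (the chains of C4b-binding protein), Cfi (factor I) and Serping1 (C1 inhibitor) were not called at any dose. Cfi differed by -0.24 (limma, adjusted p = 0.219) and Serping1 by -0.23 (adjusted p = 0.271) at 244.6 mg/kg, with all 3 arrays of each below every vehicle array. At 489.2 mg/kg the same genes differed by 0.17 and 0.11.

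Among procoagulant genes F10 and F12 were called, and F2, F9, F5 and Klkb1 were not. F10, the protease that activates prothrombin, had vehicle log2 signals with a lowest of 12.74, a median of 12.77 and a highest of 12.83. Its arrays read 12.67, 12.76 and 12.72 at 61.2 mg/kg, 12.82, 12.65 and 12.62 at 122.5 mg/kg, and 12.49, 12.57 and 12.70 at 244.6 mg/kg. They read 12.62, 12.67 and 12.81 at 489.2 mg/kg and 12.53, 12.61 and 12.49 at 978.5 mg/kg. The arrays of 244.6 and 978.5 mg/kg lay below the vehicle arrays, whereas those of 489.2 mg/kg overlapped them. The log2 difference at 978.5 mg/kg was -0.23 ± 0.06 (SE), 1.17-fold lower (limma, adjusted p = 0.0268), and the trend fell by 0.04 ± 0.01 per dose rank (limma, adjusted p = 0.0262). Without treated replicate 1 or 3 the adjusted p at 978.5 mg/kg was 0.0928 or 0.136, and that of the trend was 0.0720 or 0.0714.

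F12, which starts contact activation on negatively charged surfaces, had a lowest vehicle log2 signal of 13.39, a median of 13.45 and a highest of 13.46. Its arrays read 13.41, 13.37 and 13.26 at 61.2 mg/kg, 13.61, 13.35 and 13.25 at 122.5 mg/kg, and 13.24, 13.27 and 13.33 at 244.6 mg/kg. They read 13.35, 13.40 and 13.38 at 489.2 mg/kg and 13.22, 13.29 and 13.07 at 978.5 mg/kg. The 244.6 and 978.5 mg/kg arrays were again the ones below every vehicle array. The difference at 978.5 mg/kg was -0.25 ± 0.07 (SE), 1.19-fold lower (limma, adjusted p = 0.0324), and the trend was not called (adjusted p = 0.0563). The call was lost without treated replicate 1 or 3 (adjusted p 0.0718 and 0.219) and without vehicle replicate 1, 2 or 4 (0.0503 to 0.0535).

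Klkb1, the prekallikrein that F12 activates and that activates F12 in turn, differed by -0.27 at 978.5 mg/kg (limma, adjusted p = 0.0912), with no overlap with vehicle there or at 244.6 mg/kg. F9, which activates factor X, was 13.43, 13.43 and 13.39 at 244.6 mg/kg against vehicle values of 13.52 to 13.86. All 3 treated arrays lay below the vehicle arrays, but the difference of -0.25 was not called (limma, adjusted p = 0.0922), and at 978.5 mg/kg it was -0.04. F2 differed by -0.06 at 978.5 mg/kg (95% interval -0.18 to 0.07). F5 had a wide spread, a residual SD of 0.30 at the 94.1st percentile of genes, and its largest difference was -0.48 at 489.2 mg/kg (limma, adjusted p = 0.231). Without replicate 3 of 489.2 mg/kg the members called at that dose were F5 and Serpind1, both downward, and not Masp1.

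Fga lay below vehicle on both of its probe sets at every dose, by different amounts. Fga, its alpha chain, differed by -0.15 ± 0.07 (SE) at 978.5 mg/kg on its brightest probe set 1370992_a_at (limma over probe sets, adjusted p = 0.199), and Fgg, the gamma chain, differed by -0.12. The other Fga probe set, 1371258_at, read 12.48, 12.72, 12.59, 12.48, 13.18 and 13.49 in vehicle arrays, 11.77, 12.24 and 12.20 at 244.6 mg/kg and 11.68, 11.99 and 11.99 at 978.5 mg/kg. All arrays of both doses lay below every vehicle array. Its difference was -0.94 ± 0.19 (SE) at 978.5 mg/kg, 1.91-fold lower (limma over probe sets, adjusted p = 0.00417), and -0.75 ± 0.19 at 244.6 mg/kg (adjusted p = 0.0431). At 489.2 mg/kg it was -0.30 (adjusted p = 0.535). The mean of both probe sets differed by -0.54 ± 0.12 (SE) at 978.5 mg/kg (limma, adjusted p = 0.00755) with a trend slope of -0.09 (adjusted p = 0.0150), both past the threshold. Probe set 1371258_at was singled out after its values were seen. Vehicle means were 14.70 for 1370992_a_at, 14.73 for Fgg and 12.82 for 1371258_at, where the arrays' brightest probe sets read 15.30 to 15.36. Whether the top of the scale limited the brighter ones was not tested.

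**Figure D4:**
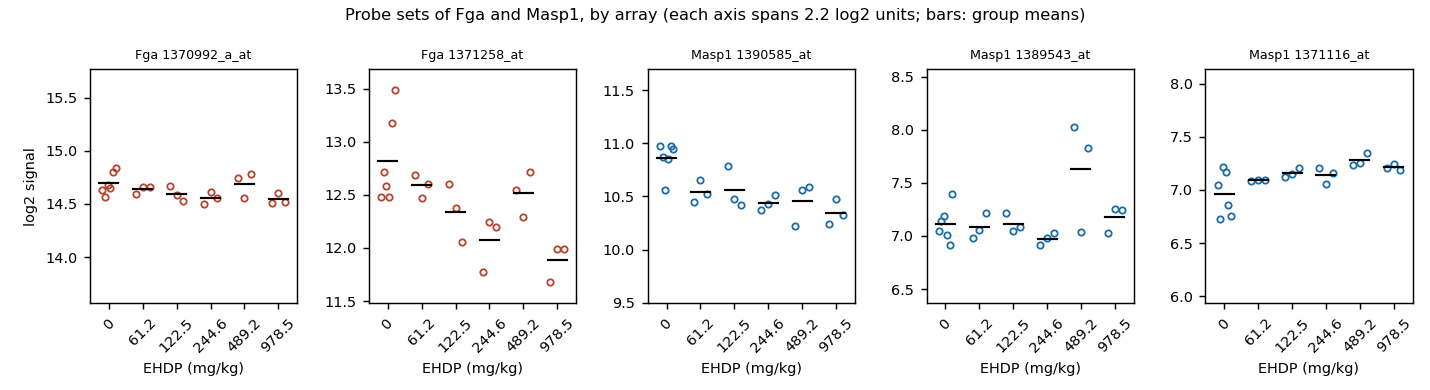
Log2 signal in each array (points) with group means (bars) against EHDP dose for the 2 probe sets of Fga and the 3 of Masp1, each axis spanning 2.2 log2 units. Fga 1371258_at and Masp1 1390585_at lie below all vehicle arrays at 244.6 and 978.5 mg/kg, while Masp1 1389543_at is high in 2 arrays of 489.2 mg/kg.

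The anticoagulants split. Pros1, protein S, the cofactor of activated protein C that also circulates bound to C4b-binding protein, had vehicle log2 signals with a lowest of 11.65, a median of 11.72 and a highest of 11.75. Its arrays read 11.92, 11.82 and 12.07 at 61.2 mg/kg, 11.82, 11.85 and 11.79 at 122.5 mg/kg, and 11.91, 11.78 and 11.88 at 244.6 mg/kg. They read 11.94, 11.92 and 11.98 at 489.2 mg/kg and 11.88, 12.14 and 12.04 at 978.5 mg/kg. All 15 treated arrays lay above all 6 vehicle arrays. The difference was 0.30 ± 0.07 (SE) at 978.5 mg/kg, 1.23-fold (limma, adjusted p = 0.00575), and it held in all 9 refits that left out an array. The trend rose by 0.05 ± 0.01 per dose rank (limma, adjusted p = 0.00963), although the rise at 61.2 mg/kg was 0.22 (limma, adjusted p = 0.706) and at 122.5 mg/kg 0.11.

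Serpind1, heparin cofactor II, a thrombin inhibitor, fell over the doses. Its vehicle arrays had a lowest log2 signal of 13.29, a median of 13.44 and a highest of 13.59. Its arrays read 13.28, 13.49 and 13.35 at 61.2 mg/kg, 13.39, 13.25 and 13.07 at 122.5 mg/kg, and 13.14, 13.17 and 13.26 at 244.6 mg/kg. They read 12.92, 13.08 and 13.34 at 489.2 mg/kg and 13.12, 13.13 and 13.07 at 978.5 mg/kg. All arrays of 244.6 and 978.5 mg/kg, and 2 of 3 at 489.2 mg/kg, were below every vehicle array. The difference at 978.5 mg/kg was -0.34 ± 0.09 (SE), 1.26-fold lower (limma, adjusted p = 0.0200), and the trend fell by 0.07 ± 0.01 per dose rank (limma, adjusted p = 0.00136). Without treated replicate 1 or 3 the adjusted p at 978.5 mg/kg was 0.0603 or 0.0930.

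Other restraining and clot-dissolving genes were not called at any dose. Serpinc1, antithrombin, differed by -0.01 at 978.5 mg/kg (95% interval -0.12 to 0.10), and Vtn, vitronectin, by -0.06 (-0.18 to 0.05). Proc differed by -0.06, Plg by -0.08 and Cpb2, a carboxypeptidase that slows fibrinolysis, by 0.06. Serpinf2, the plasmin inhibitor, differed by -0.29 (limma, adjusted p = 0.0645). It was called there when replicate 2 of 978.5 mg/kg was left out.

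The arms were then set side by side. At 244.6 mg/kg the median log2 difference from vehicle was -0.18 over complement members and -0.11 over coagulation members, against -0.01 over all genes, and 26 of 31 members (83.9%) lay below zero against 52.9% of all genes. The treated arrays of 12 members (38.7%) lay wholly below the vehicle arrays there, against 3.07% of all genes, and those of 2 (Masp2 and Pros1) wholly above, against 5.51%. At 489.2 mg/kg the medians were 0.07 and 0.00 (0.01 over all genes), with 0 members wholly below (2.88% of all genes) and Masp2, C3 and Pros1 wholly above (3.54%). At 978.5 mg/kg they were -0.09 and -0.10 (-0.02 over all genes), with 7 members (22.6%) wholly below against 6.79% of all genes and 3 wholly above (6.74%). Without replicate 3 of 978.5 mg/kg the complement median there was -0.02, beside -0.02 over all genes with every array kept. At 61.2 and 122.5 mg/kg complement medians were -0.01 and -0.07 and coagulation medians -0.03 and -0.03. Members wholly above the vehicle arrays were C8a and Pros1 at 61.2 mg/kg (1.48% of all genes) and Masp2 and Pros1 at 122.5 mg/kg (1.81%), and 0 were wholly below at either (0.893% and 1.24%). Masp2 stands among the members wholly above through the probe set read. On 1371025_at, the brighter one in the vehicle arrays, its treated arrays lay wholly above at no dose. Both medians lay lower at 244.6 and 978.5 mg/kg than at 489.2 mg/kg, the dose between them.

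Replicate 3 of 489.2 mg/kg stood apart in complement genes. It was the highest of the 21 arrays in 13 of the 31 members, where it was highest in 5.54% of all genes. Of the 13, 10 were complement genes (C3, C5, C6, C8a, C8b, C9, C4bpa, C4bpb, Cfi and Serping1) and 3 were coagulation genes (F2, Klkb1 and Cpb2). Its median over complement members was 0.27 above the vehicle means, against 0.03 and -0.04 in the other arrays of the dose. The mean of 17 acute phase genes outside the set was 0.82 above the vehicle mean in that array, and between -0.34 and 0.35 in every other array, and its part in the result was not tested. Without that array the complement median at 489.2 mg/kg was -0.01 and the coagulation median -0.05, both still above the medians of 244.6 and 978.5 mg/kg.

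The complement median minus the coagulation median per array averaged 0.01 ± 0.04 (SD, n = 6) in vehicle arrays and -0.05 ± 0.02 (n = 3) at 244.6 mg/kg. It was 0.08 ± 0.10 at 489.2 mg/kg and 0.04 ± 0.01 at 978.5 mg/kg. The values at 244.6 mg/kg ran from -0.07 to -0.03 and those in vehicle arrays from -0.04 to 0.07, and all 5 dose groups overlapped the vehicle arrays in this measure.

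**Figure D5:**
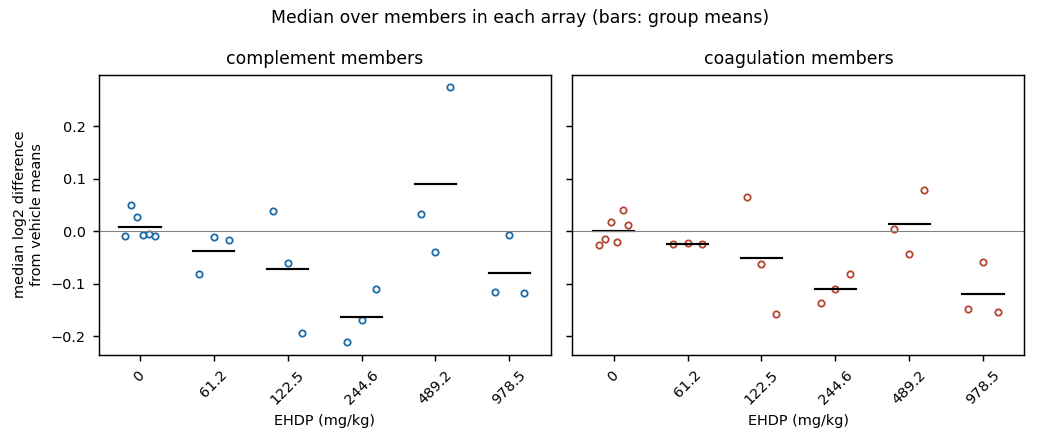
Median over complement members (left) and coagulation members (right) of the log2 difference from the vehicle means, in each array (points) with group means (bars), against EHDP dose. Arrays of 244.6 mg/kg lie between -0.21 and -0.08, and replicate 3 of 489.2 mg/kg reaches 0.27 for complement.

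Gene pairs that lie close together in the genome also followed each other across the 21 arrays. Fga and Fgg, with 0 protein-coding genes between them on chromosome 2, had Pearson's r = 0.97 and Spearman's rho = 0.95 (permutation p = 1e-05 each, the smallest that 100000 permutations can give, and 3e-05 after adjustment over the 3 pairs compared). C4bpa and C4bpb on chromosome 13, with 1 gene between them, had r = 0.79 and rho = 0.78 (permutation p = 2e-05 and 9e-05, adjusted 3e-05 and 0.00014). C8a and C8b, with 0 genes between them on chromosome 5, had r = 0.60 and rho = 0.58 (permutation p = 0.003 and 0.0067, adjusted 0.003 and 0.0067). Without the 2 arrays farthest from the median r was 0.96, 0.69 and 0.50, and between deviations from the dose group means it was 0.96, 0.89 and 0.54. Over all 465 pairs of members the median r was 0.37, of deviations 0.35, and 83% of pairs had r above 0. Between deviations of members and of the other genes the median was 0.01. The permutation p-values are set against no correlation, so they do not show that neighbours are closer than other members. Arrays of a dose share their processing and a tissue, and these are descriptions over arrays.

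Other genes of the same pathways were read from lists chosen with earlier results known. Of 17 other complement genes measured, 1 rose and 3 fell at 978.5 mg/kg, where 6.18% of all genes were called upward and 4.07% downward. Clu (clusterin), which keeps the membrane attack complex from inserting, rose by 0.36 on the log2 scale (limma, adjusted p = 0.0229). Cfp (properdin) differed by -0.48 (adjusted p = 0.0267), the C5a receptor C5ar1 by -0.64 (adjusted p = 0.0235) and the recognition ficolin Fcna by -0.97 (adjusted p = 0.0133). Beside the same shares of all genes, 3 of 23 other clotting genes rose and 0 fell. They were Vkorc1l1, an enzyme that recycles vitamin K, by 0.53 (adjusted p = 0.0114), Serpina10, the protein Z-dependent inhibitor of factor X, by 0.37 (adjusted p = 0.0202), and tissue factor F3 by 0.28 (adjusted p = 0.0296). Fgb, the beta chain of fibrinogen, differed by -0.18 (adjusted p = 0.142).

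Of 22 transcription factors and cytokine receptors that act on plasma protein genes, 2 rose and 1 fell at 978.5 mg/kg. Upward calls took 6.18% of all genes at this dose and downward calls 4.07%. Nfkbia, an inhibitor of NF-kB, rose by 0.43 (limma, adjusted p = 0.0342) and the nuclear receptor Nr5a2 by 0.37 (adjusted p = 0.0154). Il6st, the signalling chain shared by interleukin 6 family receptors, fell by 0.40 (adjusted p = 0.0248). In the trend 2 of the 22 were called upward and 3 downward (6.06% and 5.12% of all genes). Foxa3 and Onecut1 were among those called downward, with slopes of -0.15 (limma, adjusted p = 0.0255) and -0.40 (adjusted p = 0.0240) per dose rank. At 978.5 mg/kg 1 of 17 acute phase genes rose and 1 fell (6.18% and 4.07% of all genes). The endotoxin co-receptor Cd14 rose by 0.80 (limma, adjusted p = 0.00553) and Itih3 had a difference of -0.17 (adjusted p = 0.0417).

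Some markers of other liver cells differed as well. Of 8 Kupffer cell and macrophage markers measured of 11 listed, all 8 had differences below zero at 978.5 mg/kg, 1 of them, Cd163, with a call (-0.77, limma, adjusted p = 0.0209), where 55.3% of all genes had a difference below zero. Their mean log2 signal ran from 9.56 to 10.07 in vehicle arrays and from 9.01 to 9.47 at 978.5 mg/kg. All 9 stellate cell markers also lay below zero, 2 with a call (Reln and Pdgfrb), with list means of 7.69 to 8.24 in vehicle arrays and 7.12 to 7.81 at 978.5 mg/kg. Of 8 endothelial markers 7 lay below zero there, as did all 7 lymphocyte markers, and 0 of either were called by limma. Limma's unadjusted p was under 0.05 for 6 Kupffer, 4 stellate, 1 endothelial and 4 lymphocyte markers. Of 4 bile duct markers 1 rose (Epcam) and 3 lay below zero. At this dose 4.07% of all genes were called downward and 6.18% upward, and 24.7% had an unadjusted p under 0.05. In the trend limma called 3 Kupffer, 3 stellate and 2 lymphocyte markers downward and Epcam upward. It called 0 endothelial markers. An unadjusted p under 0.05 in the trend was reached by 7 Kupffer, 6 stellate, 2 endothelial, 4 lymphocyte and 1 bile duct markers. For all genes the trend shares were 5.12% downward, 6.06% upward and 24.5% at an unadjusted p under 0.05. The Kupffer list did not follow dose in every array: at 489.2 mg/kg its mean was -1.31, 0.06 and 0.15 from the vehicle mean. In RNA of whole tissue fewer cells of a type and less RNA per cell cannot be told apart. Properdin, the C5a receptor and ficolin A are known products of macrophages and other myeloid cells. The part of these cells in the differences of members and of those genes was not tested.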

How the data were processed

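Per the submitters' processing notes the authors summarised the arrays by RMA, and the deposited log2 values were used unchanged. The RMA version is not given in the sources used here. Of 31099 probe sets, 20832 carried 1 gene symbol, 436 several and 9831 none. Genes came from GEO's platform annotation. Array medians ran from 6.33 to 6.41, and pairs of vehicle arrays correlated at 0.986 to 0.995. The members, lists and tests were chosen with earlier results of these data known.

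Differences were fitted with limma 3.58.1 in R 4.3.3, with 1 mean per dose group over all 21 arrays, and adjusted by Benjamini-Hochberg over all 14218 genes at 0.05. The trend used dose rank from 0 to 5. The fit was tested on simulated data. The number of arrays, 3 at each dose, limits the precision. Neighbouring genes were compared with 100000 permutations. Python 3.11.15 with pandas 2.3.3 and matplotlib 3.10.9 served for tables and figures.

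Every member found was named. Values in every array were given for members called at a dose or in the trend, and 95% intervals for the 4 uncalled members with the narrowest ones. Of each other pathway list at most 4 called genes were named. Alternatives were the mean of probe sets, a filter on level, other eBayes options, array weights, centring, quantile normalisation, a replicate block, only the arrays compared, the treated arrays alone, the dose in mg/kg, swapped arms, means for medians and leaving out each array. A fit of every probe set, and reading each gene from its brightest probe set in vehicle arrays, were added after the data were seen.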

Additional observations from a re-analysis of the deposited data

Results flagged for a closer look

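In 34 groups of 6 vehicle arrays, those of the 31 members and of 3 measures of the arms, 2 held an array far from the other 5. For Masp1 vehicle replicate 3 was the lowest at a log2 signal of 10.56, and the next was 10.86, a gap of 0.713 of the group's range. For Masp2 vehicle replicate 1 was the lowest at 11.05, and the next was 11.32, a gap of 0.640 of the range. Both gaps passed Dixon's 95% critical value, which chance passes in about 1 of 20 groups. Without vehicle replicate 3 Masp1 was still called at 978.5 mg/kg, as was Masp2 without vehicle replicate 1.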

How the results depend on the processing

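Of 154 counts and medians under alternatives other than leaving out an array, 137 lay within 1.5 times the count reported or within the spread, which does not say that the same genes were called. With mean probe sets 489.2 mg/kg had 1 call, Serpind1 in place of Masp1. At 978.5 mg/kg it had 5, with Masp1 and Masp2 lost and Fga gained, and in the trend 6, with Masp1 and Masp2 lost and C8b, F12 and Fga gained. With the brightest probe set in vehicle arrays, Masp2 was lost at 978.5 mg/kg (5 calls) and in the trend (4). Members called at 122.5 mg/kg were 3 with array weights (0 as reported). At 244.6 mg/kg (1) they were 0 with mean probe sets, 3 with array weights and 2 with quantile normalisation. At 489.2 mg/kg (1) they were 3 among genes above the median level, 2 with trended robust eBayes, with median centring and with quantile normalisation, and 0 with array weights or only the arrays compared. At 978.5 mg/kg (6) they were 3 with only the arrays compared, and in the trend (5) 0 with the treated arrays alone. For complement minus coagulation the group average less the vehicle average was compared here. At 61.2 mg/kg it was 0.0414 with Serping1, Vtn and Pros1 in the other arm, and -0.02 with the arms used above.

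Masp1 changed sign on its other probe sets: 0.18 at 244.6 mg/kg (1371116_at), 0.52 and 0.32 at 489.2 mg/kg, 0.061 and 0.25 at 978.5 mg/kg and slopes of 0.0458 and 0.056. With mean probe sets it was 0.14 at 489.2 mg/kg with a slope of 0.0021. Masp2 on 1393156_at was -0.19 at 978.5 mg/kg with a slope of -0.0532. The cause of these changes was not tested.

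Leaving out 1 array gave 0 to 0 calls at 61.2 and 122.5 mg/kg, 0 to 1 at 244.6, 0 to 2 at 489.2, 2 to 6 at 978.5 and 4 to 8 in the trend. It gave complement medians of -0.157 to -0.007 at 122.5 mg/kg, -0.0139 to 0.181 at 489.2 mg/kg and -0.104 to -0.0178 at 978.5 mg/kg. Coagulation medians were -0.114 to 0.0243 at 122.5 mg/kg. Complement minus coagulation, as the group average less the vehicle average, was 0.0091 to 0.105 at 489.2 mg/kg.

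Replicate numbers were not shown to pair arrays: 17 of 45 same-number pairs correlated over 0.1 in their deviations (median 0.06), against 17 of 90 pairs of different numbers (median -0.02), and 10 of 18 arrays correlated best with their own number. Replicate 1 was the lowest array for the endothelial markers in each of the 6 groups, -0.37 to -0.56 from the vehicle mean, which is a hint from the data and not from the design. With the replicate block the calls were 0 at 244.6, 0 at 489.2, 3 at 978.5 mg/kg (F10, F12 and Serpind1 not called) and 3 in the trend (F10 and Pros1 not called, Pros1 at an adjusted p of 0.0759). With 3 arrays at a dose, small differences could not be told from the spread.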
